A study of Oryza sativa Japonica Group with 8 samples.

Results

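The genes described here are the annotated rice peroxidases other than those described as ascorbate, glutathione, thioredoxin or peroxiredoxin family members. They were taken from the gene table by the word peroxidase in its description column. Genes whose description names those families or a catalase were left out, and so were Os03g0285700 and Os07g0694700. A member of those families described only as a peroxidase would stay in the list. This rule found 144 of 37869 annotated genes, and it used no expression value. Leaf RNA was sequenced from 4 groups of rice plants with 2 libraries each, to ask which transcripts change when the RNA-binding protein gene OsGRP3 is expressed more strongly or less strongly. OsGRP3 OE plants carried OsGRP3 under the constitutive OsCc1 promoter in cultivar Nakdong and were compared with non-transgenic (NT) Nakdong plants. OsGRP3 KD plants carried an RNA interference construct against the 3′ untranslated region of OsGRP3 under the OsGOS2 promoter in cultivar Dongjin and were compared with NT Dongjin plants. All plants were 4 weeks old by the labels and the study's methods and grew in soil under normal conditions with no drought, and which transgenic line gave each library was not stated in the sources used here. The study calls its replicates biological, but no label says that they were separate plants, so the p-values measure the spread between 2 libraries a group, which may be in part technical.

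Class III peroxidases are secreted haem enzymes of the plant cell wall and vacuole. With hydrogen peroxide they oxidise phenolic compounds, among them the monolignols that polymerise to lignin and the phenolic and protein side chains that stiffen the wall, and they can also release reactive oxygen species in place of consuming them. The family is large in grasses and many of its genes lie side by side on the chromosomes. Each gene tends to be used in certain tissues and stages, such as elongating cells, vessels, roots or wounded leaves.

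The descriptions divided the 144 genes into 135 haem peroxidases or genes named only as peroxidase and 9 genes whose description names a haloperoxidase domain. The latter domain is shared with type 2 phosphatidic acid phosphatases, which act on membrane lipids and hold no haem. These 9 genes are thus not class III peroxidases. Values below for the peroxidase genes as a group include these 9 except where they are given apart. On the rice genome IRGSP-1.0, 92 of the genes lay in 28 tandem groups, in which neighbours were at most 50000 bases apart, and 52 lay alone. Chromosome 7 held 24 genes and chromosome 1 held 21. In the leaf, 113 of the 144 genes had a count above 0 in at least 1 library and 31 had none in any. Of the genes in tandem groups 22 of 92 were at 0 everywhere, and of those alone 9 of 52. A total of 89 genes passed the filter on low counts and were tested, and of the other 55 no gene had more than 22 counts in any library. A count of 0 allows up to 3 counts, which corresponded to between 0.0770 and 0.116 CPM (counts scaled to the library total) in these libraries, and this limit covers counting error only.

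The total count was between 25836946 and 38940899 per library. The NT Dongjin libraries stood apart from the other 6. Genes without a count numbered 13721 and 13166 there and between 11070 and 11903 in the others, and the median coverage of the first exon against the last exon, on the log2 scale, was -0.87 and -0.80 there and between -2.90 and -2.51 in the others, over 6883 genes with 1 transcript. Read coverage was thus more even along transcripts in NT Dongjin. Markers of cell types and zones differed with it. The 23 genes of the photosynthetic leaf list summed to 51890 and 51980 CPM in NT Dongjin and to between 86690 and 104800 CPM in the others, with 5 genes at 0 there and 4 or 5 elsewhere, the 55 expansins to 72.8 and 67.6 CPM against 596 to 874 CPM, with 39 and 40 of them at 0 against 26 to 31, and the 7 root genes to 0.542 and 0.740 CPM against 19.0 to 45.2 CPM, with 6 at 0 against 1 to 4. The 69 histone and B-type cyclin genes of dividing cells summed to 2251 and 2312 CPM in NT Dongjin and to between 2607 and 2916 CPM in the others, with 19 and 18 at 0 against 13 or 14. OsGRP3 itself was at 1251 and 1166 CPM in NT Nakdong, 1453 and 1923 CPM in OsGRP3 OE, 411 and 413 CPM in NT Dongjin and 356 and 315 CPM in OsGRP3 KD. By these counts OsGRP3 was only slightly lower in OsGRP3 KD than in NT Dongjin. The study lists a far larger fall from its sequencing and also reports a strong fall in knockdown lines by qRT-PCR. Whether reads of the interference construct, which carries part of the OsGRP3 3′ untranslated region, add to these counts was not tested. No label names a batch. Between OsGRP3 KD and NT Dongjin, knockdown and whatever else set the NT Dongjin libraries apart cannot be told apart, and every result of that comparison below is to be read beside these values.

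The peroxidases as a group were abundant in 6 libraries and scarce in 2. Their summed level was 1746 and 1964 CPM in NT Nakdong, 1746 and 2003 CPM in OsGRP3 OE, 1952 and 1474 CPM in OsGRP3 KD, and 586 and 597 CPM in NT Dongjin. Without the 9 haloperoxidase genes the sum was 493 and 511 CPM in NT Dongjin and between 1322 and 1835 CPM in the others. The NT Dongjin libraries were thus below every other library, which overlapped with each other. Genes at 1 CPM or more numbered between 65 and 77 in the other 6 libraries and 41 and 40 in NT Dongjin. In a mixed tissue such as a leaf, fewer cells of a type and less RNA in each cell cannot be told apart. The heat map of the 89 tested genes shows this pattern gene by gene.

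**Figure D1:**
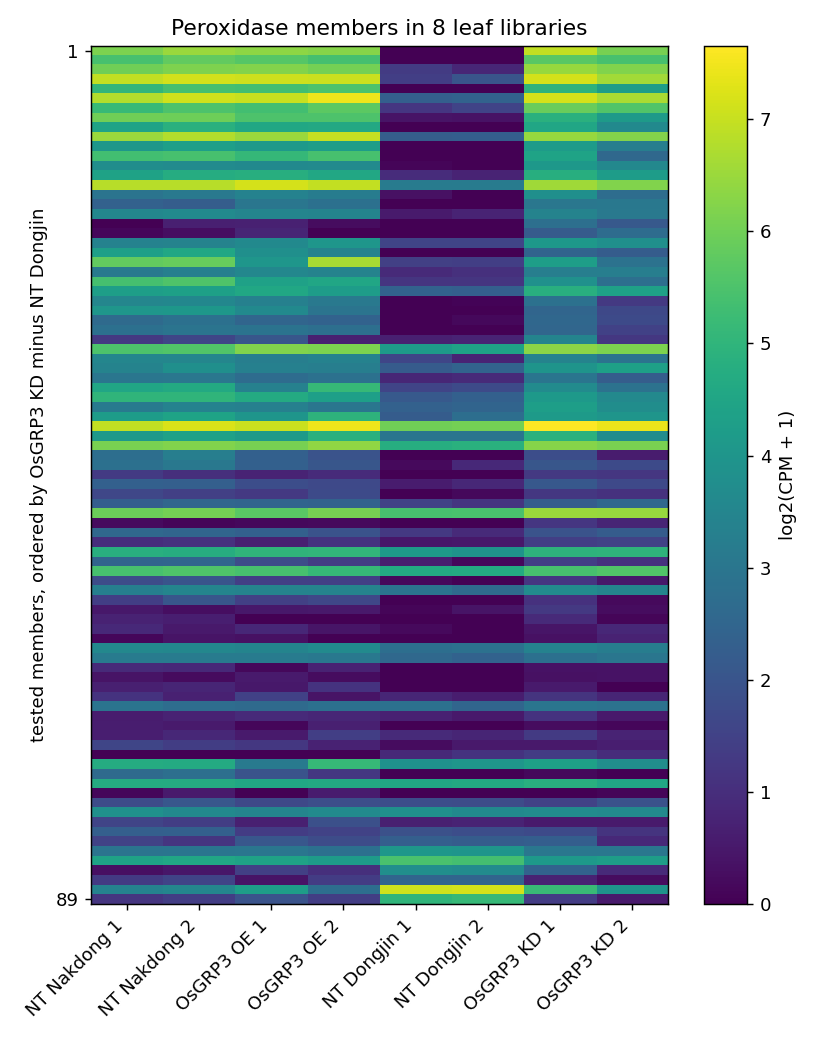
Heat map of the 89 tested peroxidase genes (rows) in 8 leaf libraries (columns), coloured by log2(CPM + 1) and ordered by the difference between OsGRP3 KD and NT Dongjin. The NT Dongjin columns are dark in most rows at the top and bright in a few rows at the bottom, while the other 6 columns look alike.

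In OsGRP3 OE against NT Nakdong, no peroxidase gene was called. A gene was called when it differed by 2-fold or more with a Benjamini-Hochberg adjusted p under 0.05 in edgeR's quasi-likelihood test over all 24383 tested genes. At that threshold 0 of 89 genes were higher and 0 were lower, where 0.619% of all tested genes were higher and 0.853% were lower. With an unadjusted p under 0.05 at 2-fold, 1 gene was higher and 5 were lower, against 1.74% and 2.6% of all genes, and DESeq2's test called 1 higher and 2 lower, against 0.791% and 1.09% of all genes. The median log2 fold change of the 89 genes was -0.03, with 40 positive and 48 negative, and that of all genes was 0.

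The gene with the strongest evidence of a change in OsGRP3 OE was Os05g0135500, a haem peroxidase on chromosome 5, named here after its values were seen. It was at 44.6 and 46.6 CPM in NT Nakdong and at 73.4 and 69.7 CPM in OsGRP3 OE. The groups did not overlap, but the rise was under 2-fold, with a log2 fold change of 0.69 ± 0.10 (SE) and an adjusted p of 0.0102 in edgeR's quasi-likelihood test. It was the only peroxidase gene with an adjusted p under 0.05 at any size of change. This gene was at 16.9 and 20.1 CPM in NT Dongjin and at 78.8 and 69.7 CPM in OsGRP3 KD.

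The genes past 2-fold only before adjustment were named after their values were seen. Os08g0113000, annotated as similar to AtPRX47, a peroxidase of vessels and fibres in Arabidopsis, had 52 and 29 counts in OsGRP3 OE against 7 and 15 in NT Nakdong, with a log2 fold change of 2.16 ± 0.73 and an adjusted p of 0.217 in edgeR's quasi-likelihood test. The 5 genes with lower values were Os06g0695500, Os12g0112000, Os10g0536700, Os04g0656800 and Os06g0695400. The most abundant of them was Os06g0695500, annotated as similar to AtPRX16, which was at 40.8 and 45.5 CPM in NT Nakdong and at 19.7 and 21.9 CPM in OsGRP3 OE. The groups did not overlap, and edgeR's adjusted p was 0.114. Os06g0695400, its neighbour in the same tandem group, had no count in OsGRP3 OE against 20 and 22 in NT Nakdong, which is at least 5.93-fold lower against a floor of 3 counts per library, with an edgeR adjusted p of 0.181.

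**Figure D2:**
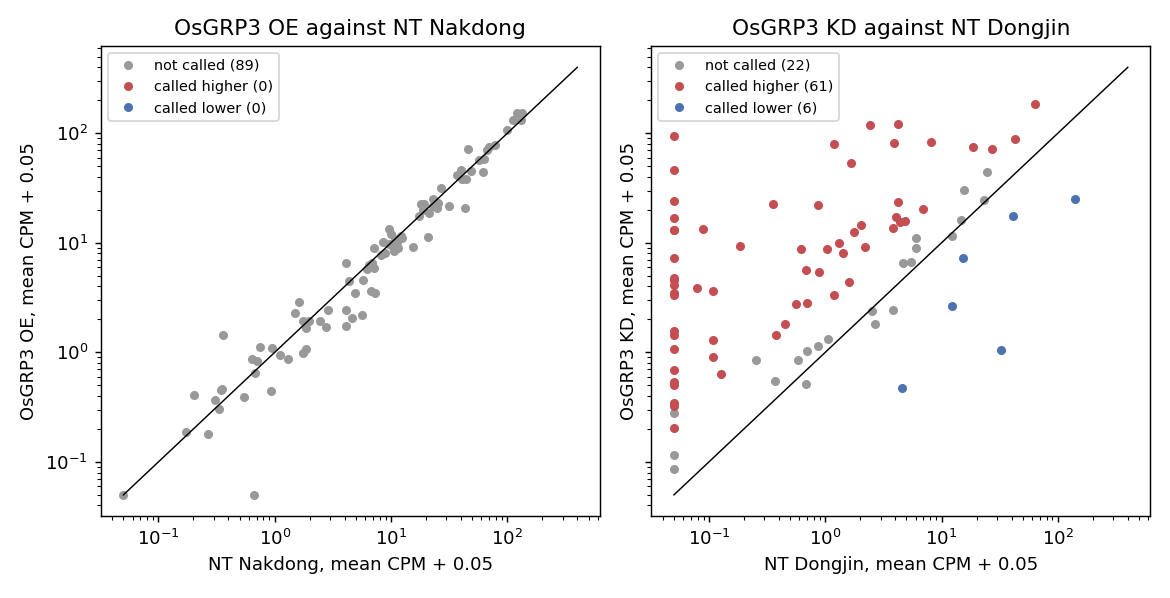
Mean CPM + 0.05 of the 89 tested genes in the transgenic group (vertical log axis) against its NT control (horizontal log axis), for OsGRP3 OE on the left and OsGRP3 KD on the right, with the diagonal marking equal levels. On the left the points follow the diagonal with 0 called, and on the right 61 called genes lie above it and 6 below.

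In OsGRP3 KD against NT Dongjin, most peroxidase genes were higher. By the same threshold 61 of 89 genes (68.5%) were higher and 6 (6.74%) were lower, where 23.8% of all tested genes were higher and 13.8% were lower. The median log2 fold change was 2.88 over the peroxidase genes and 0.14 over all genes, and 2.16 and 0.13 with genes at 0 in one group set to their bound against 3 counts per library. Among the 80 genes without a haloperoxidase description 58 were higher and 5 lower, and among the 9 with it 3 were higher and 1 lower. Many genes passed the filter only through the groups in which they are high: 36 of the 89 had under 10 counts in an NT Dongjin library and 24 had 0 in both. Of the 53 with 10 counts or more in both NT Dongjin libraries 30 were higher and 6 lower, where 17.4% and 16.5% of the 20331 genes so chosen were higher and lower. Counted over the last exon at the 3′ end only, 54 of 86 genes were higher and 5 lower, against 19.6% and 12.9% of all genes in that fit.

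NT Dongjin was also the lower group for most peroxidase genes when set against the other control. In NT Dongjin against NT Nakdong, which shares its NT Dongjin libraries with the former comparison, 5 peroxidase genes were higher and 59 lower, where 14.3% and 24.7% of all genes were. Genes called lower in NT Dongjin than in both NT Nakdong and OsGRP3 KD numbered 56, against 20.3% of all genes, and genes called higher than both numbered 4, against 11.3% of all genes. Of 82 peroxidase genes with a count in each of the other 6 libraries, 17 (20.7%) were at 0 in both NT Dongjin libraries, and of all genes so chosen 4.56% were.

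POX1 (Os01g0263300) lies on the plus strand of chromosome 1 between 8917756 and 8919968. The study lists it among its candidates for negative regulation by OsGRP3. Its description names it as similar to AtPRX72, which takes part in stem lignification in Arabidopsis. It was at 62.2 and 61.5 CPM in NT Nakdong, 44.3 and 44.9 CPM in OsGRP3 OE, 0.310 and 0.296 CPM in NT Dongjin, and 28.1 and 16.9 CPM in OsGRP3 KD. The 4 groups did not overlap, and the 8 and 10 counts of NT Dongjin lay far below all others. In OsGRP3 OE the log2 fold change was -0.44 ± 0.17, with an adjusted p of 0.292 in edgeR's quasi-likelihood test. In OsGRP3 KD against NT Dongjin it was 6.23 ± 0.28, with an edgeR adjusted p of 4.27e-07. Against NT Nakdong, OsGRP3 KD was lower by a log2 fold change of -1.47 ± 0.18, with an edgeR adjusted p of 0.00231. The direction of POX1 in the knockdown thus depended on which NT group it was set against.

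**Figure D3:**
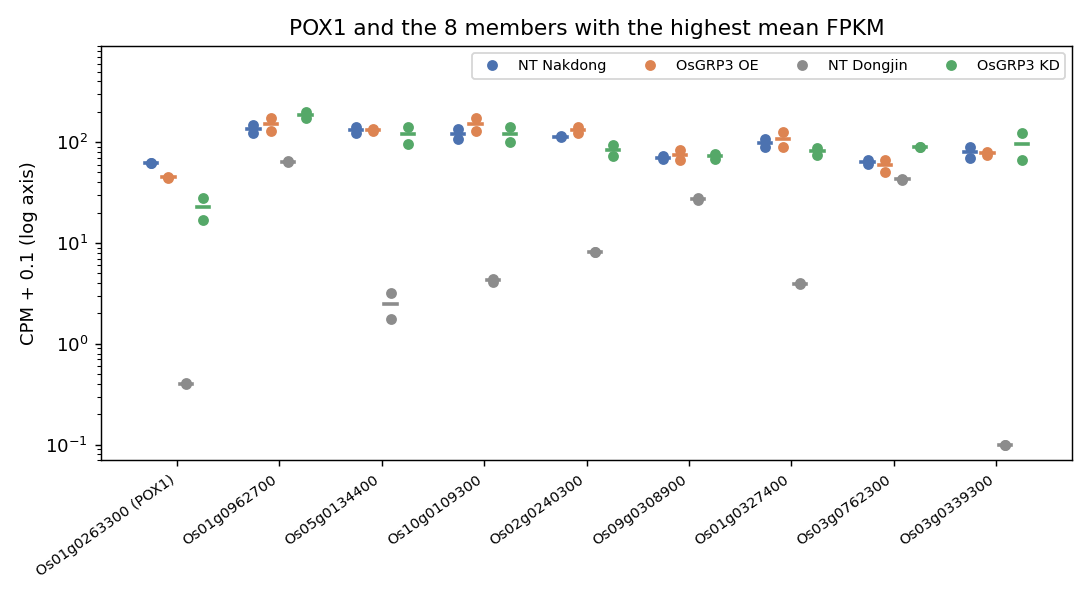
CPM + 0.1 on a log axis of POX1 and of the 8 peroxidase genes with the highest mean FPKM, with 2 points for the libraries of each group and a line at their mean. NT Dongjin lies lowest for all 9 genes, and Os03g0339300 has 0 counts there, so its points fall at the bottom of the axis.

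The 8 genes with the highest mean FPKM, a level scaled to transcript length, had mean values over all libraries between 48.1 and 92.7 FPKM. Os01g0962700, annotated as similar to AtPRX12, led with 92.7 FPKM. It was at 122 and 147 CPM in NT Nakdong, 129 and 174 CPM in OsGRP3 OE, 63.1 and 65.2 CPM in NT Dongjin and 200.3 and 172 CPM in OsGRP3 KD. OsGRP3 OE and NT Nakdong overlapped (log2 fold change 0.20 ± 0.13), while OsGRP3 KD was above NT Dongjin by 1.57 ± 0.14 on the log2 scale, with an adjusted p of 1.32e-05 in edgeR's quasi-likelihood test. Os03g0762300, annotated as similar to AtPRX51, was the most even of the 8. It had 60.3 and 65.8 CPM in NT Nakdong, 50.4 and 66.8 CPM in OsGRP3 OE, 42.4 and 42.9 CPM in NT Dongjin and 89.4 and 88.7 CPM in OsGRP3 KD. Its OsGRP3 KD libraries were above all 6 others, by 1.10 ± 0.12 on the log2 scale against NT Dongjin, and this change fell to 0.80 with counts of the last exon.

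Os05g0134400, Os10g0109300, Os02g0240300 and Os01g0327400 were alike in being abundant everywhere but in NT Dongjin. Os05g0134400 was at 123 and 140.0 CPM in NT Nakdong, a mean of 132 ± 3.05 CPM (SD, n = 2) in OsGRP3 OE, 1.66 and 3.08 CPM in NT Dongjin and 142 and 95.9 CPM in OsGRP3 KD. Os10g0109300, annotated as similar to AtPRX54, was at 4.03 and 4.29 CPM in NT Dongjin and at mean levels of 121 ± 19.3 CPM (SD, n = 2) in NT Nakdong, 152 ± 33.2 in OsGRP3 OE and 122 ± 28.6 in OsGRP3 KD. The log2 fold changes in OsGRP3 KD against NT Dongjin were 5.64 for Os05g0134400, 4.89 for Os10g0109300, 3.40 for Os02g0240300 and 4.44 for Os01g0327400, all with an edgeR adjusted p under 0.05. None of the 4 passed the threshold in OsGRP3 OE, where their log2 fold changes were 0.04, 0.35, 0.26 and 0.15. Os09g0308900 is the haloperoxidase-domain gene among the 8 and is also described as a lipid phosphate phosphatase. It was at 67.7 and 72.7 CPM in NT Nakdong, 67.2 and 82.8 CPM in OsGRP3 OE, 26.4 and 27.9 CPM in NT Dongjin and 76.1 and 68.0 CPM in OsGRP3 KD.

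The 6 genes with the largest fitted rise in OsGRP3 KD had no count in NT Dongjin, so their changes are given as bounds. Os03g0339300 on chromosome 3 had 2081 and 3475 counts in NT Nakdong, 2450 and 2080 in OsGRP3 OE, 0 in both NT Dongjin libraries and 3743 and 1837 in OsGRP3 KD. Its level in OsGRP3 KD was at least 927-fold higher than the floor of 3 counts per library, and its level in NT Nakdong at least 772-fold higher. Os03g0234900 had 1536 and 1163 counts in OsGRP3 KD, at least 452-fold higher. Outside NT Dongjin, Os03g0234900 was between 41.1 and 55.4 CPM and Os03g0339300 between 66.3 and 124 CPM.

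Os02g0833900, annotated as similar to AtPRX64, a peroxidase of Casparian strip lignin in Arabidopsis roots, had 970 and 1609 counts in NT Nakdong, 1203 and 1213 in OsGRP3 OE, 0 in NT Dongjin and 899 and 509 in OsGRP3 KD. The latter was at least 235-fold higher than the floor. Os09g0507500 and Os12g0530100, similar to AtPRX55 and AtPRX24, were at least 165-fold and 128-fold higher in OsGRP3 KD and had 0 counts in NT Dongjin. Os11g0210100 was at 39.6 and 42.0 CPM in NT Nakdong, 33.4 and 42.3 CPM in OsGRP3 OE and 20.9 and 4.98 CPM in OsGRP3 KD, at least 126-fold higher than the floor in NT Dongjin, a bound that was 48.6-fold without OsGRP3 KD replicate 1 and 204-fold without replicate 2. Os01g0378100 had 0 counts in NT Dongjin and 217 and 204 in OsGRP3 KD, at least 70.9-fold higher, and was at 4.24 and 3.83 CPM in NT Nakdong and 6.96 and 6.15 CPM in OsGRP3 OE. Os03g0368900, named after its values were seen, had 2 and 0 counts in NT Dongjin and 483 and 299 in OsGRP3 KD. That is a ratio of 402 with an exact 95% counting interval of 111 to 3325.

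Only 6 genes were lower in OsGRP3 KD than in NT Dongjin, and 3 of them were neighbours on chromosome 7. The tandem group there held 7 genes between 28660188 and 28692640, all of them tested, and was the only one of the 28 tandem groups with called genes in both directions. Os07g0677200 was at 9.55 and 10.4 CPM in NT Nakdong, 18.1 and 5.78 CPM in OsGRP3 OE, 137 and 143 CPM in NT Dongjin and 35.7 and 14.2 CPM in OsGRP3 KD. It was the most abundant peroxidase of NT Dongjin, with 23.4% and 24% of the summed peroxidase level there, where the leading gene of any other library had between 7.03% and 11.7%. On the per-length scale it had a mean of 104.9 FPKM in NT Dongjin, above Os01g0962700 with 44.2 FPKM. OsGRP3 KD was lower than NT Dongjin by a log2 fold change of -2.47 ± 0.50, with an adjusted p of 0.00227 in edgeR's quasi-likelihood test. The log2 fold change was -3.23 without OsGRP3 KD replicate 1, which was the replicate nearer to NT Dongjin.

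Os07g0677100, its neighbour upstream, was at 1.26 and 1.64 CPM in NT Nakdong, 2.89 and 1.63 CPM in OsGRP3 OE, 31.0 and 33.7 CPM in NT Dongjin and 1.55 and 0.469 CPM in OsGRP3 KD. The NT Dongjin libraries were above the other 6, which overlapped, and the log2 fold change in OsGRP3 KD was -4.95 ± 0.43 (edgeR adjusted p 1.32e-05). It was -6.02 without OsGRP3 KD replicate 1, again the replicate nearer to NT Dongjin. Os07g0676900, the first of the group, fell by 1.20 ± 0.13 on the log2 scale. The last genes of the group, all given to complete the 7, went the other way or stayed under the threshold. Os07g0677600 had 7 and 0 counts in NT Dongjin and 396 and 156 in OsGRP3 KD, and Os07g0677500 had 0 in NT Dongjin and 108 and 152 in OsGRP3 KD, at least 44.2-fold higher. Os07g0677400, upstream of both, was at 24.3 and 24.7 CPM in NT Dongjin and 42.3 and 47.1 CPM in OsGRP3 KD, a change of 0.90 ± 0.14 on the log2 scale that stayed under 2-fold, and Os07g0677300 had 18 counts or fewer in every library. Reads that match several copies of a tandem group may be assigned differently among them, and how this was done was not given in the sources used here.

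**Figure D4:**
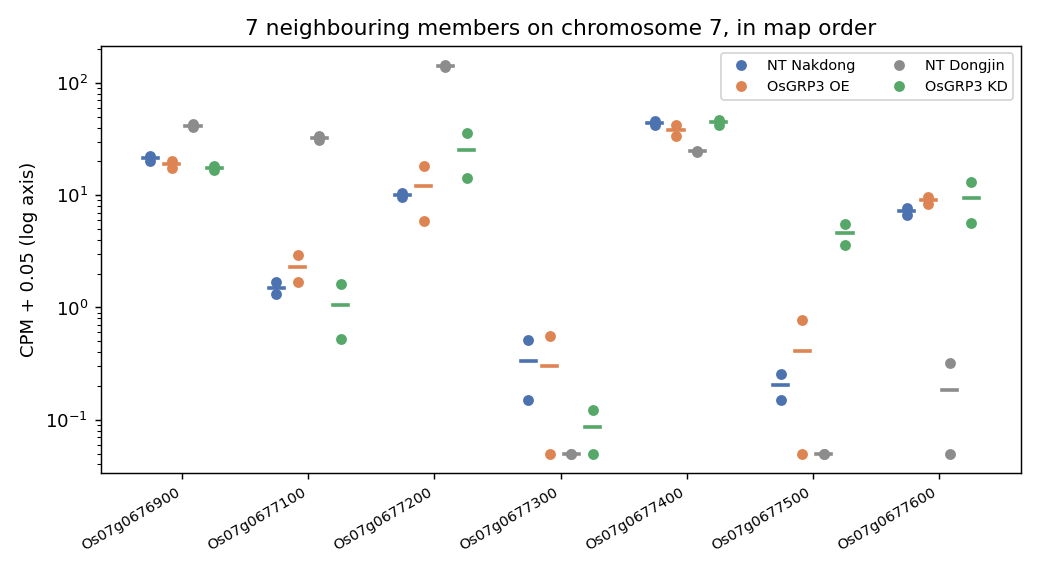
CPM + 0.05 on a log axis of the 7 neighbouring peroxidase genes on chromosome 7 in map order, with 2 points for the libraries of each group and a line at their mean. NT Dongjin is the highest group for the first 3 genes, up to 143 CPM for Os07g0677200, and the lowest or at 0 for the other 4.

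The other 3 genes lower in OsGRP3 KD lie elsewhere. Os08g0113000, the gene similar to AtPRX47, was at 12.8 and 11.9 CPM in NT Dongjin and at 4.30 and 0.866 CPM in OsGRP3 KD, with a log2 fold change of -2.24 ± 0.55 (edgeR adjusted p 0.00671), or -3.76 without OsGRP3 KD replicate 1 and -1.54 without replicate 2, and both were above NT Nakdong with 0.232 and 0.385 CPM. Os11g0112200, annotated as similar to a cationic peroxidase, had 116 and 153 counts in NT Dongjin and 20 and 5 in OsGRP3 KD, a log2 fold change of -3.37 ± 0.69 (edgeR adjusted p 0.00246), or -4.54 without OsGRP3 KD replicate 1 and -2.78 without replicate 2. Os03g0805400 has a haloperoxidase domain. It was at 15.6 and 14.9 CPM in NT Dongjin, 7.24 and 7.21 CPM in OsGRP3 KD and 6.04 to 7.03 CPM in the Nakdong libraries, and its log2 fold change of -1.04 ± 0.14 was between -0.70 and -0.93 and under 2-fold by limma on FPKM and by counts of the last exon.

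The 2 transgenic changes differed for most genes, but this difference holds the same NT Dongjin libraries as the knockdown comparison. The median log2 fold change was -0.03 in OsGRP3 OE and 2.88 in OsGRP3 KD, so most of the difference came from the latter comparison. Of the 89 genes, 24 had 0 counts in both NT Dongjin libraries and passed the filter only through other groups. Knockdown and what sets NT Dongjin apart cannot be told apart here either. The difference of both changes, OsGRP3 OE against NT Nakdong minus OsGRP3 KD against NT Dongjin, was called above 0 for 5 and below 0 for 56 of the 89 genes by edgeR's quasi-likelihood test, where 12% and 22% of all genes were.

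OsGRP3 KD was also set against NT Nakdong, a control of another cultivar whose coverage along transcripts was like that of the knockdown libraries. There 3 peroxidase genes were higher and 7 lower, against 1.36% and 3.04% of all genes, and the median log2 fold change was -0.15 over the peroxidase genes. The summed level of OsGRP3 KD, 1952 and 1474 CPM, overlapped with that of NT Nakdong. The 7 lower genes were POX1, Os02g0236600, Os05g0499300, Os06g0695500, Os03g0121200, Os04g0656800 and Os12g0112000, named after their values were seen. Os02g0236600, described as peroxidase P7, was at 19.2 and 22.7 CPM in NT Nakdong, 12.9 and 9.69 CPM in OsGRP3 OE, 0 in NT Dongjin and 4.56 and 3.64 CPM in OsGRP3 KD, with a log2 fold change of -2.36 ± 0.21 against NT Nakdong (edgeR adjusted p 0.000935). The higher genes, named likewise, were Os08g0113000, Os07g0677500 and Os02g0240100. Of these, Os07g0677500 and Os02g0240100 passed the filter on low counts only through groups in which they are high. Os02g0240100 split the libraries by cultivar. It had 0 counts in all 4 Nakdong libraries, 22 and 39 in NT Dongjin and 47 and 27 in OsGRP3 KD. OsGRP3 KD and NT Dongjin overlapped, and each was above the floor of the Nakdong libraries, by at least 14.3-fold and 11.4-fold. The counts in this comparison moved with the libraries used, from 0 to 3 higher and from 4 to 13 lower when 1 library was left out.

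A set of genes had the same order of groups as POX1. In 10 of 89 peroxidase genes (11.2%), POX1 among them by construction, every NT Nakdong library was above every OsGRP3 OE library, these above OsGRP3 KD and these above NT Dongjin, and 2.61% of all tested genes had that order. With NT Dongjin left out of the order, 12 of 89 (13.5%) had it, POX1 again among them, against 5.09% of all tested genes. The order was taken from POX1 in these same data. The genes most like POX1 by Spearman's rho of log2(CPM + 1) over the 8 libraries were Os06g0695500 with 0.976 (Pearson's r 0.963), Os03g0339400 with 0.952 (0.924), and Os02g0236600 and Os05g0499300, both with 0.946 (0.972 and 0.965). Os01g0205900 had the same rho of 0.946 as the latter. The 8 libraries share their groups and NT Dongjin lies apart, so these values describe likeness only. Without NT Dongjin the rho of Os06g0695500 over 6 libraries was 0.943 and that of the other 4 was 0.886. Os05g0499300 was at 15.4 and 15.7 CPM in NT Nakdong, 11.4 and 6.72 CPM in OsGRP3 OE, 0 in NT Dongjin and 4.69 and 2.17 CPM in OsGRP3 KD.

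Not every gene of the list differed between groups beyond the spread of the libraries. Os12g0178100, chosen after its values were seen, is described only as a haem peroxidase family protein and has 11 exons. Its description does not say whether it is a class III peroxidase. It was at 25.1 and 25.0 CPM in NT Nakdong, 22.4 and 24.2 CPM in OsGRP3 OE, a mean of 23.2 ± 1.14 CPM (SD, n = 2) in NT Dongjin and 27.2 and 22.1 CPM in OsGRP3 KD. Its log2 fold changes were -0.07 ± 0.10 in OsGRP3 OE and 0.12 ± 0.11 in OsGRP3 KD, and neither passed the test.

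Replicates of the transgenic groups spread more than those of the NT groups. Among genes with 20 counts or more over both replicates, 0 of 84 in NT Nakdong and 0 of 55 in NT Dongjin were 2-fold or more apart on the log2(CPM + 1) scale. In OsGRP3 OE 7 of 82 (8.54%) were apart, 3 higher in replicate 1 and 4 in replicate 2, where 1.93% of all tested genes were. In OsGRP3 KD 13 of 83 (15.7%) were apart, all higher in replicate 1, where 1.89% of all genes were. The genes that follow were named after their values were seen. The widest in OsGRP3 OE was Os04g0688300, with 466 and 2761 counts, in a group where NT Nakdong had 1682 and 2264. Its tandem neighbour Os04g0688100 had 282 and 936 counts in OsGRP3 OE, while Os04g0688500 of the same tandem group had 96 and 16. In OsGRP3 KD the widest was Os04g0688500, with 299 and 38 counts. Os04g0688300, Os04g0688500 and Os07g0677200 were apart in both transgenic groups.

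**Figure D5:**
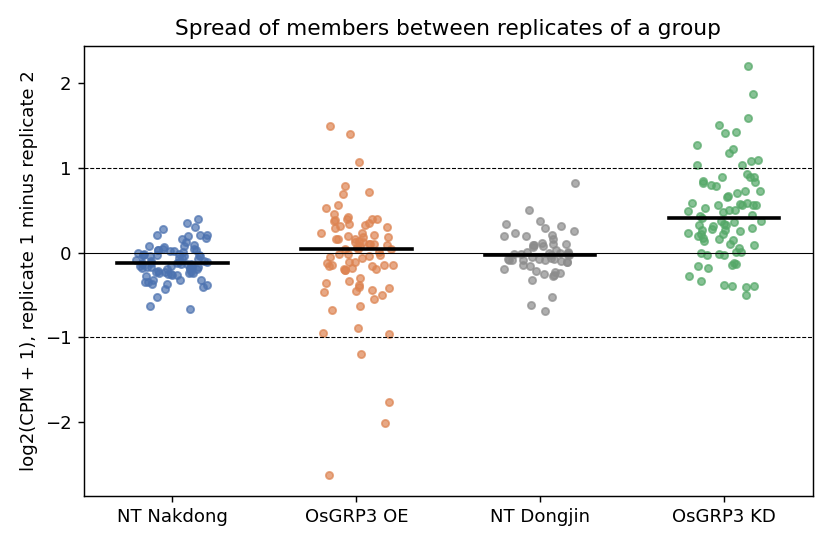
Difference of log2(CPM + 1) between replicate 1 and replicate 2 for each tested peroxidase gene with 20 counts or more in the group, with a thick line at the median of each group and dashed lines at 2-fold. All points of NT Nakdong and NT Dongjin lie between the dashed lines, 7 of OsGRP3 OE lie outside on both sides and 13 of OsGRP3 KD lie above.

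Other genes of wall phenolics and of reactive oxygen were read from keyword lists beside the peroxidases. None of their tested genes was called in OsGRP3 OE. Laccases, which oxidise monolignols with oxygen, had 9 of 15 higher and 3 lower in OsGRP3 KD against NT Dongjin, and their summed level was 64.3 and 60.0 CPM in NT Dongjin and 232 to 278 CPM in the other libraries. Enzymes of monolignol synthesis had 14 of 41 higher and 6 lower, and their sum was between 2810 and 3700 CPM in all libraries, with NT Dongjin inside that range. Respiratory burst oxidases, which make superoxide outside the cell, had 2 of 7 higher and 1 lower, with a sum of 127 and 123 CPM in NT Dongjin and 238 to 299 CPM in the others. Germin-like proteins had 6 of 13 higher and 4 lower. Their sum was 225 and 228 CPM in NT Dongjin, overlapping with 397 and 203 CPM in OsGRP3 KD. It was between 559 and 723 CPM in the Nakdong libraries. Dirigent proteins, which guide the coupling of phenolic radicals, had 1 of 2 higher. Of all genes, 23.8% were higher and 13.8% lower, and the counts of the respiratory burst oxidases were near those shares. The median log2 fold changes in OsGRP3 KD, with genes at 0 set to their bound, were 1.70 for laccases, 0.36 for monolignol enzymes, 0.35 for respiratory burst oxidases, 1.99 for germin-like proteins and 1.89 for dirigent proteins, beside 2.16 for the peroxidase genes and 0.13 for all genes. Among the marker lists, 18 of 25 expansins were higher and 1 lower, 6 of 18 photosynthetic genes were higher, 28 of 55 histone and cyclin genes were higher and 2 lower, and 2 of 4 root genes were higher, and their part in the change of the peroxidases was not tested. In OsGRP3 OE these marker lists had 1 gene higher and 1 lower, both among histones and cyclins.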

How the data were processed

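Messenger RNA of leaves was sequenced in 8 libraries, 2 for each of OsGRP3 OE, NT Nakdong, OsGRP3 KD and NT Dongjin, and libraries were grouped by their sample labels. Estimated counts in the deposited gene table were made by the authors with StringTie 1.3.4d on HISAT alignments to IRGSP-1.0 with its stranded setting, per the file headers. They equalled coverage times transcript length divided by the read length of 101 bases, rounded up and summed over transcripts, for at least 99.9947% of genes in each library, and were used as whole numbers. FPKM values, which the authors summed over transcripts, set levels between genes and the alternative tests. TPM values made by the authors were not used. Transcript and exon coverage deposited by the authors gave the comparison of first and last exons. The study's methods name TopHat and a TruSeq RNA kit, and the labels name HISAT2, Bowtie2, StringTie and the stranded kit.

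Totals of 25836946 to 38940899 counts per library leave genes under about 10 counts with a wide counting error. Counts were normalised by TMM, filtered by filterByExpr and fitted with edgeR 4.0.16 (quasi-likelihood, a mean per group, all 8 libraries) in R 4.3.3, and p-values were adjusted over all 24383 tested genes. Calls needed 2-fold and an adjusted p under 0.05. The method was run on simulated counts in which all groups shared a common mean for each gene, apart from a limited set of changed genes. That setting does not cover a group that differs in many genes, as NT Dongjin did, so it is no support for calls against NT Dongjin. CPM values are counts scaled to the deposited total, without TMM. Ratios for genes at 0 in a group are bounds against 3 counts per library. Alternatives used limma 3.58.1, DESeq2 1.42.0, other filters, normalisation and samples, counts of the last (3′-most) exon of each transcript, and each library was left out in turn. Tables and figures used pandas 2.3.3, matplotlib 3.10.9 and Python 3.11.15.

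The genes named singly are POX1, the 8 with the highest mean FPKM, the 6 largest changes (or all, where 10 or fewer were called) in each direction and comparison among genes with a mean log2 CPM of at least 1 and no overlap, genes at 0 in one group and at 5 CPM or more in the other, those called in both comparisons, and those most like POX1. The rest of the tandem group of 7 on chromosome 7 was added because 3 of its genes were named, and others are marked as named after their values were seen. The lists of laccases, respiratory burst oxidases, monolignol enzymes, dirigent and germin-like proteins and of photosynthetic, histone and cyclin, expansin and root genes were chosen by keywords in the descriptions. A helicase caught by the root keywords and genes named for germination were taken out. The peroxidase genes and lists were chosen with earlier results of these data known. No sequence is printed, since no rice sequence table was used here.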

Additional observations from a re-analysis of the deposited data

Results flagged for a closer look

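The change in OsGRP3 OE against NT Nakdong differed from that in OsGRP3 KD against NT Dongjin, by a test of the difference in edgeR's quasi-likelihood fit, in many peroxidase genes. At 2-fold and an adjusted p under 0.05 the difference (the former change minus the latter, on the log2 scale) was above 0 for 5 genes and below 0 for 56. Of the genes named singly, those below 0 had lower levels in NT Dongjin than in the other groups and those above 0 had higher levels there, and what sets NT Dongjin apart was not tested.

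Among the genes named singly, the difference was -6.66 for Os01g0263300 (POX1). For the abundant genes it was -1.37 for Os01g0962700, -5.60 for Os05g0134400, -4.54 for Os10g0109300, -3.14 for Os02g0240300, -1.31 for Os09g0308900, -4.29 for Os01g0327400 and -1.17 for Os03g0762300. Genes with 0 counts in NT Dongjin have fitted values that depend on the prior count and are no bounds: -14.48 for Os03g0339300, -13.55 for Os03g0234900, -12.30 for Os02g0833900, -12.03 for Os09g0507500, -11.60 for Os12g0530100, -11.69 for Os11g0210100 and -10.06 for Os01g0378100. Differences above 0 were 4.39 for Os08g0113000, 1.07 for Os07g0676900, 5.62 for Os07g0677100, 2.78 for Os07g0677200 and 1.02 for Os03g0805400.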

How the results depend on the processing

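Of the counts of called peroxidase genes under an alternative, 106 stayed within 1.5 times the reported count and 20 did not. In OsGRP3 OE, genes called higher numbered 1 by DESeq2's test and 1 with an unadjusted p, and genes called lower 2 by DESeq2, 1 with no filter, 1 with only the 4 libraries of the comparison, 1 by limma on log2(FPKM + 1), 5 with an unadjusted p and 0 to 1 without 1 library. In OsGRP3 KD against NT Dongjin, 31 genes of 49 were higher when every library needed 10 counts, and leaving out 1 library gave 53 to 60 higher and 6 to 8 lower. The difference of both changes was above 0 for 3 to 5 genes without 1 library, 3 without NT Nakdong replicate 1. Against NT Nakdong, OsGRP3 KD had 1 gene higher with counts of the last exon, 12 lower by DESeq2 and 15 lower with no filter. Without 1 library it had 0 to 3 higher, 0 without NT Nakdong replicate 1 and 1 without NT Nakdong replicate 2 or OsGRP3 KD replicate 1, and 4 to 13 lower, 4 without either NT Nakdong library and 13 without OsGRP3 KD replicate 1. A fit to the 6 libraries other than NT Dongjin, chosen after seeing the data, gave 0 calls in OsGRP3 OE and 2 higher and 8 lower here. The causes were not tested.

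With a replicate block, 0 genes were called in OsGRP3 OE, and 58 higher and 6 lower in OsGRP3 KD. The labels give only a number, and deviations of same-numbered libraries had correlations of -0.0595 and -0.0164 within the cultivars.

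Small changes in OsGRP3 OE turned sign. By all 3 limma settings Os05g0134400 was at -0.00 and Os03g0339300 at -0.02, and with counts of the last exon Os03g0339300 was at -0.01 and Os12g0530100 at -0.03. Without 1 library, the log2 fold changes that turned sign ranged from -0.05 to 0.15 for Os05g0134400, -0.09 to 0.35 for Os01g0327400, -0.26 to 0.08 for Os03g0762300, -0.17 to 0.21 for Os03g0339300, -0.27 to 0.13 for Os03g0234900, -0.24 to 0.21 for Os09g0507500, -0.09 to 0.18 for Os12g0530100, -0.22 to 0.05 for Os11g0210100, -0.79 to 0.92 for Os07g0677200 and -0.18 to 0.11 for Os03g0805400.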

Other observations

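A pair of genes in a tandem group of 5 on chromosome 7, between 3011373 and 3104241, had most of their counts in the knockdown libraries. Os07g0156200, described as a haem peroxidase, had 0 and 23 counts in NT Nakdong, 19 and 5 in OsGRP3 OE, 0 in both NT Dongjin libraries and 181 and 95 in OsGRP3 KD. Os07g0156910, annotated as similar to a peroxidase and only 276 bases long, had 5 and 3, 4 and 4, 0 and 0, and 40 and 20 counts in the same order of groups. Both OsGRP3 KD libraries were above the other 6 libraries for each gene. Against NT Dongjin, both were called higher in OsGRP3 KD, at least 45.9-fold with an adjusted p of 0.00202 for Os07g0156200 and at least 9.97-fold with an adjusted p of 0.0012 for Os07g0156910. Against NT Nakdong, the log2 fold change of Os07g0156200 in OsGRP3 KD was 3.87 ± 1.01, with an adjusted p of 0.0591 in edgeR's quasi-likelihood test. The other 3 genes of the group were at 0 in every library. These genes were picked after their values were seen, so their p-values are no independent support. Os07g0156910 had 5 counts or fewer in each library outside OsGRP3 KD and passed the filter on low counts only through OsGRP3 KD. Against NT Dongjin, the knockdown and what sets those libraries apart cannot be told apart.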
